A study of Arabidopsis thaliana with 4 samples.

Results

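KNS4 (AT1G33430) and its relatives are galactosyltransferase genes of glycosyltransferase family GT31 in Arabidopsis thaliana. They were followed in unopened floral buds of cdm1 mutant and wild type plants. Genes were taken by locus: a gene counted as measured where the platform annotation assigned a probe set to it alone. Of the 10 loci, 9 were measured, each by 1 probe set, among 13286 loci so measured on the array. AT1G32930 (GALT31A) had no such probe set and is not analysed here. The study held 4 Affymetrix arrays, with 2 biological replicates for each genotype, all in the cultivar Col-0 and all from plants aged 24 days after germination. The labels do not describe the cdm1 allele. Moderate drought is mentioned for some plants after bolting, and no label assigns it to any of the arrays.

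Enzymes of this family work in the Golgi and transfer galactose to glycoproteins. Several of them build the galactan backbone of type II arabinogalactans, the sugar chains carried by arabinogalactan proteins of the cell surface. KNS4, also called UPEX1, is such an enzyme. It is needed for the primexine, the matrix laid down around microspores in the tetrad, and for the pattern of the outer pollen wall, the exine. CDM1 encodes a CCCH zinc finger protein needed for normal callose around the tetrads. The comparison of mutant with wild type therefore asks how transcripts of these enzymes stood in buds of the cdm1 mutant. The arrays do not measure callose.

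Buds of cdm1 held less AT1G05170 transcript than wild type buds, a decrease of 1.60-fold, and of the 9 members it alone passed limma's test, for which the threshold was an adjusted p of 0.05. Over the whole array, 1.33% of 22746 probe sets passed, 0.602% as higher and 0.73% as lower in cdm1. KNS4 read 1.33-fold higher in cdm1 and did not pass. The median log2 fold change (cdm1 minus wild type throughout) was 0.046 over the 9 members and 0.0036 over all probe sets. The median size of the change, whatever its sign, was 0.18 over the members and 0.11 over all probe sets. Log2 fold changes were positive for 6 members and negative for 3.

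All levels given here are log2 expression values after RMA, the authors' normalisation. Each probe set binds with its own strength, so a level can be set against the same probe set on another array, but not against another gene's level. The arrays ran from 2.64 to 14.0, and none of the 9 members lay in the dimmest 33.3% of probe sets, whose mean levels were below 5.32. KNS4 lay near the upper end of this scale and its relatives lay between 6.42 and 9.36. Whether KNS4 transcripts were more abundant than those of its relatives cannot be read from these values.

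KNS4 read 11.58 and 11.81 in the wild type arrays and 12.06 and 12.14 in the cdm1 arrays. Both cdm1 arrays lay above both wild type arrays, by 0.25 at the closest. The wild type arrays were farther from each other (0.22) than the cdm1 arrays were (0.089). The means were 11.69 ± 0.16 in wild type and 12.10 ± 0.063 in cdm1 (SD, n = 2 arrays each). The log2 fold change was 0.41 (SE 0.11), with a limma interval at 95% confidence from 0.13 to 0.68 before any adjustment. After adjustment over all probe sets the limma p was 0.181, and KNS4 stood at place 1418 in the order of p-values. Without wild type replicate 1, the array with the lowest KNS4 level, the log2 fold change was 0.29 (limma adjusted p = 0.752).

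**Figure D1:**
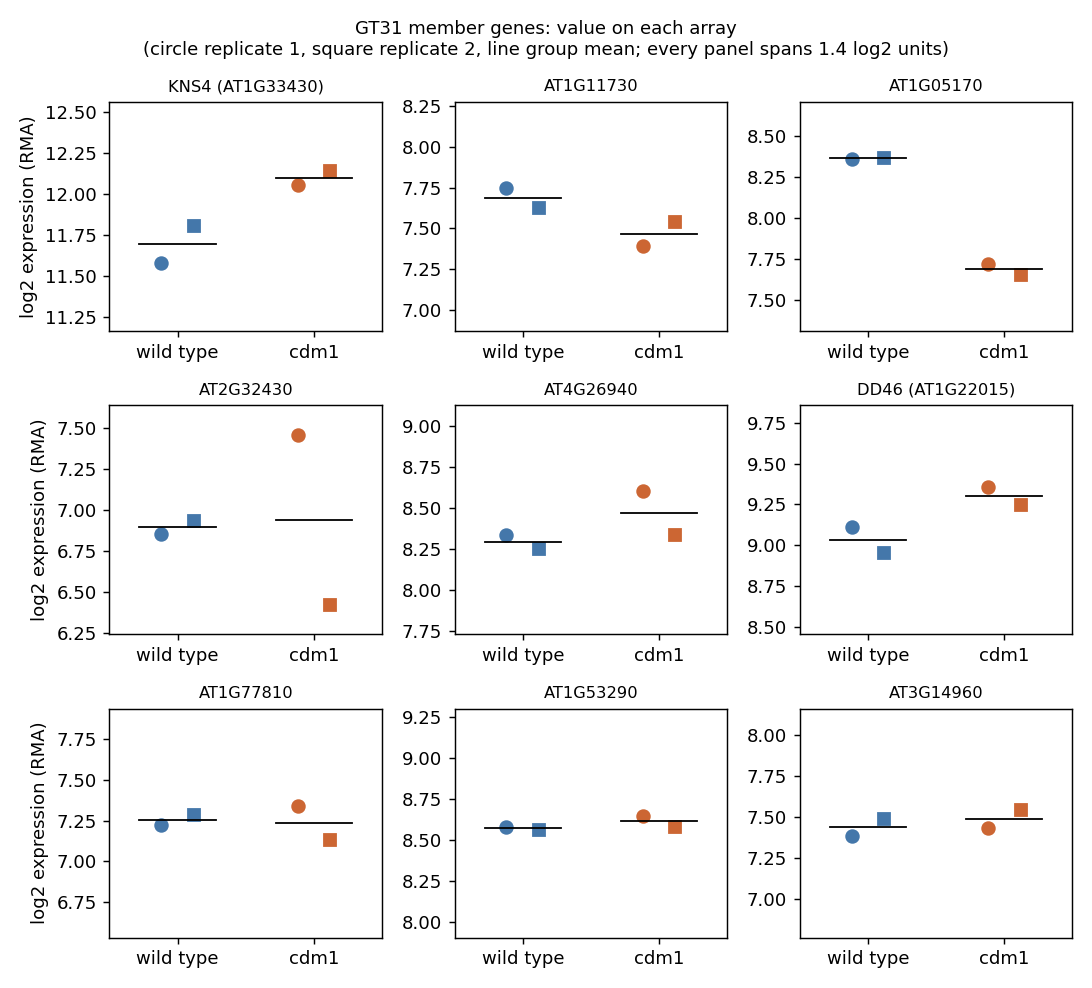
Log2 expression values (vertical axis) of the 9 measured GT31 genes on each array, for wild type and cdm1. Circles are replicate 1, squares replicate 2 and lines group means, and each panel covers the same span of log2 units. AT1G05170 is lower in both cdm1 arrays, KNS4 is higher in both, and the cdm1 arrays lie 1.04 apart for AT2G32430.

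AT1G05170, a predicted galactosyltransferase of the family, read 8.363 on both wild type arrays and 7.72 and 7.65 on the cdm1 arrays. The genotypes were separated by at least 0.64, against 0.067 between the cdm1 arrays. The means were 8.36 ± 0.00047 for wild type and 7.69 ± 0.047 for cdm1 (SD, n = 2 arrays each). The log2 fold change was -0.68 (SE 0.091), with a limma adjusted p of 0.0338. The wild type arrays differed by 0.00066, a gap smaller than that of nearly every probe set, since only 0.488% were closer. Over all probe sets the median gap was 0.10 between wild type arrays and 0.13 between cdm1 arrays. The call ended when cdm1 replicate 1 (limma adjusted p = 0.0509), wild type replicate 1 (0.321) or wild type replicate 2 (0.277) was left out, while the log2 fold change stayed between -0.71 and -0.64. With wild type replicate 1 or wild type replicate 2 left out, limma called 0 probe sets on the whole array (1619 and 2133, in that order, had an unadjusted p under 0.05).

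AT1G11730, a relative also annotated as a galactosyltransferase, was lower in both cdm1 arrays but did not pass. It read 7.75 and 7.63 in wild type and 7.39 and 7.54 in cdm1, so the groups were 0.085 apart at the closest. Its log2 fold change was -0.22 (SE 0.10, limma adjusted p = 0.385).

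DD46 (AT1G22015) is a family member known from screens for genes active in the female gametophyte. It read 9.11 and 8.95 in wild type and 9.36 and 9.25 in cdm1. Both cdm1 arrays were above both wild type arrays, and the log2 fold change of 0.27 (SE 0.11) did not pass (limma adjusted p = 0.308). Of the carpel and ovule markers, 2 of 6 were measured, and their mean log2 level ran from 6.44 to 6.46 in cdm1 and from 6.31 to 6.38 in wild type. INO, a transcription factor gene of the outer ovule integument, was at 0.23 (SE 0.12, limma adjusted p = 0.423) and lay in the dimmest 33.3%, and without wild type replicate 2 it was at 0.11. SPT, the other one measured and named after its value was seen, was at -0.022 (SE 0.099) with overlapping genotypes, and its sign turned without replicate 2 of cdm1 (0.028) or of wild type (0.035). The part of these tissues in the DD46 values was not tested.

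AT4G26940 read 8.34 and 8.25 in wild type and 8.61 and 8.34 in cdm1. The lower cdm1 array exceeded the higher wild type array by 0.0033, and the log2 fold change of 0.18 (SE 0.12) did not pass (limma adjusted p = 0.534). It was 0.046 without cdm1 replicate 1 and 0.32 without cdm1 replicate 2. In all, 3 members read higher in both cdm1 arrays than in both wild type arrays, and 2 read lower in both. Such separation was common on the array, at 47.3% of all probe sets, 23.7% upward and 23.6% downward. At an unadjusted p of 0.05, 3 members passed (KNS4, DD46 and AT1G05170), where 15.3% of all probe sets did.

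The genotypes overlapped for the remaining 4 members. AT2G32430 had the largest spread: its cdm1 arrays read 7.46 and 6.42, on either side of the wild type values of 6.85 and 6.93. Only 0.409% of probe sets had cdm1 arrays farther apart. Its log2 fold change was 0.046 (SE 0.31), and it was -0.47 without cdm1 replicate 1 and 0.57 without cdm1 replicate 2, so its direction rests on 1 array.

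AT1G77810 was at -0.018 (SE 0.11), AT1G53290 at 0.042 (SE 0.091) and AT3G14960 at 0.049 (SE 0.099). The limma intervals at 95% confidence ran from -0.29 to 0.25 for AT1G77810, from -0.18 to 0.26 for AT1G53290 and from -0.19 to 0.29 for AT3G14960. Values inside these intervals, in either direction, could not be told apart with 2 arrays per genotype. The intervals were taken before any adjustment, so their bounds are not a limit of detection. KNS4, at 0.41, lay beyond them and did not pass.

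**Figure D2:**
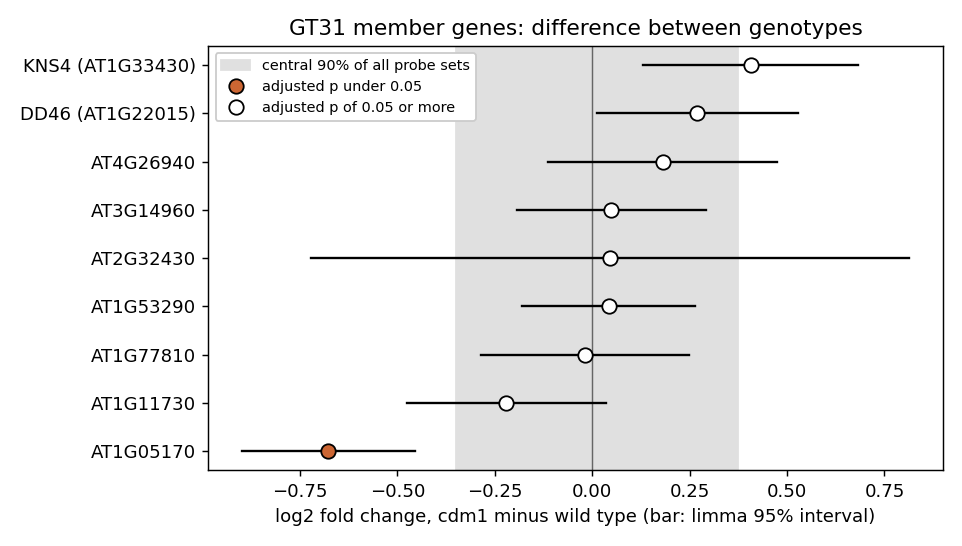
Log2 fold change of each measured GT31 gene, cdm1 minus wild type, with its limma interval at 95% confidence before adjustment. The grey band holds the central 90% of all 22746 probe sets, from -0.35 to 0.37. AT1G05170 at -0.68 is the 1 filled point (adjusted p under 0.05), and KNS4 at 0.41 lies just outside the band.

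The change of KNS4 was then set against that of its relatives. The mean over the 8 measured relatives read 7.95 and 7.93 in wild type and 7.99 and 7.81 in cdm1. The cdm1 arrays thus lay on both sides of the wild type values, and the mean changed by -0.041. Entering it are AT1G05170, at -0.68, and AT2G32430, whose cdm1 arrays lay 1.04 apart. KNS4 minus this mean was 3.63 and 3.87 in wild type and 4.06 and 4.34 in cdm1. The size of that offset also reflects probe binding, and only its difference between genotypes, 0.45, is read here. It was higher in both cdm1 arrays, with an exact permutation p of 0.333 (two-sided), the smallest that 2 arrays against 2 allow, so this test could not have passed. The pooled SD between arrays of one genotype was 0.18.

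Taken against each relative in turn, over 8 comparisons, the change of KNS4 was larger by 1.08 than that of AT1G05170 and by 0.63 than that of AT1G11730. The same difference was 0.43 for AT1G77810, 0.36 for AT1G53290 and 0.36 for AT3G14960. In these 5 comparisons both cdm1 arrays lay above both wild type arrays. The same held for KNS4 minus 78.8% of the other probe sets of the array, so 5 of 8 is not a result about the relatives. For AT2G32430 (0.36), AT4G26940 (0.23) and DD46 (0.14) the genotypes overlapped.

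The wider GT31 family was examined through 20 further loci, of which 17 were measured. In that list 1 gene rose, none fell and 16 did not pass, where 1.33% of all probe sets passed, 0.602% as higher. The gene that rose, AT1G01570, encodes a protein with the domain of unknown function DUF604. It read 6.48 and 6.53 in wild type and 7.10 and 7.21 in cdm1, so that both mutant arrays lay above both wild type arrays by at least 0.58. Its log2 fold change was 0.65 (SE 0.094, limma adjusted p = 0.0394), a 1.57-fold increase. The call ended without cdm1 replicate 1 (limma adjusted p = 0.0521), without wild type replicate 1 (0.371) or 2 (0.291) and with an intensity trend in the variance (0.0602).

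These further loci fall into 2 branches. The DUF604 branch had 10 of its 11 genes measured, with a median log2 fold change of 0.23, 7 positive and 3 negative. At an unadjusted p of 0.05, 4 of its genes were higher and 1 was lower, against 15.3% of all probe sets in either direction, and 3 of the 10 lay in the dimmest 33.3%. The branch of GALT and HPGT enzymes had 7 of its 9 genes measured and a median of -0.011, and none passed at an unadjusted p of 0.05 in limma. This branch was described by its known roles after its values were seen. HPGT1, HPGT2 and HPGT3 attach the first galactose to hydroxyproline of arabinogalactan proteins. Their log2 fold changes were 0.12 for AT5G53340 (HPGT1), -0.011 for AT4G32120 (HPGT2) and -0.066 for AT2G25300 (HPGT3). The difference between the branches was not tested.

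Other enzymes that extend or modify arabinogalactans, or that arabinosylate hydroxyproline, gave 7 measured genes of 15 listed. None passed the test, 6 had positive log2 fold changes and the median was 0.17. At an unadjusted p of 0.05 limma gave 2, both higher, where 15.3% of all probe sets passed in either direction. AT5G13500 (HPAT3), a hydroxyproline arabinosyltransferase, had the smallest p, reading 7.88 and 7.94 in wild type and 8.39 and 8.14 in cdm1. Its log2 fold change was 0.36 (SE 0.11, limma adjusted p = 0.227). Of 2 listed genes for galactan breakdown, AT3G49880, a glycosyl hydrolase of family GH43, was measured, and its log2 fold change was 0.0063 (SE 0.093) at a limma adjusted p of 0.986. None of the 8 listed genes of UDP-galactose synthesis and transport, and none of the 6 listed arabinogalactan proteins of anthers, counted as measured. They are not analysed here.

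**Figure D3:**
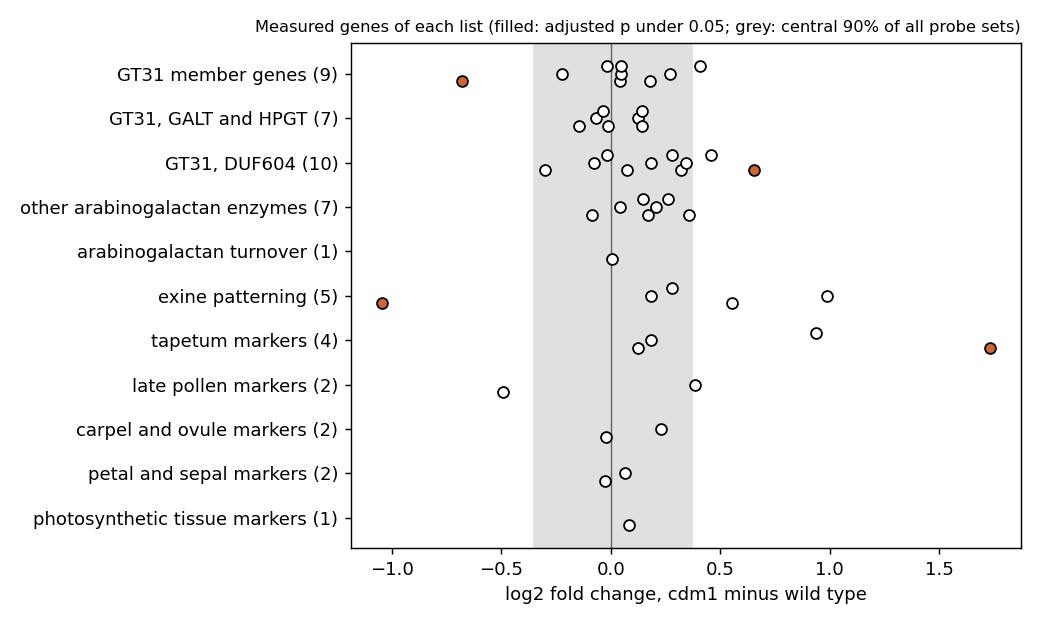
Log2 fold changes (horizontal axis) of the measured genes of each list, with the number measured in brackets, filled where the adjusted p was under 0.05. AMS stands in both the exine and the tapetum list, and the grey band holds the central 90% of all probe sets. AT1G05170 and INP1 are filled to the left, and AT1G01570 and SHT to the right.

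Of 19 other genes listed for exine patterning, 5 were measured. INP1 (AT4G22600), which sets the pollen apertures, fell, none rose and 4 did not pass, where 1.33% of all probe sets passed. Those 4 had positive log2 fold changes and the median of the 5 was 0.28. At an unadjusted p of 0.05 limma gave 3 higher and 1 lower, where 15.3% of all probe sets passed. INP1 read 6.84 and 6.82 in wild type and 5.93 and 5.64 in cdm1, which is a log2 fold change of -1.05 with an SE of 0.12 (limma adjusted p = 0.0224). That call ended without either wild type array (limma adjusted p = 0.238 without replicate 1 and 0.224 without replicate 2). The other genes, named here after their values were seen, were AMS and 3 that act in the primexine and in sugar supply. SWEET8 (RPG1), a sugar transporter gene, was at 0.56 (SE 0.15). USP, whose product makes UDP-sugars, was at 0.28 (SE 0.10). SWEET13 (RPG2), a second sugar transporter gene, was at 0.99 (SE 0.28), and at 0.53 without cdm1 replicate 1. Leaving out cdm1 replicate 2 took it to 1.44, where it passed (limma adjusted p = 0.00516).

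KNS4, which read higher in cdm1 without passing, was set beside markers of the tapetum. The tapetum is the nurse tissue that supplies the pollen wall. Of 6 listed tapetum markers 4 were measured, and all 4 read higher in both cdm1 arrays, as did 23.7% of all probe sets, with a mean log2 level of 11.14 and 11.34 in cdm1 against 10.62 and 10.36 in wild type. SHT (AT2G19070), a tapetal spermidine hydroxycinnamoyl transferase, rose by 1.73 on the log2 scale, with an SE of 0.24 (limma adjusted p = 0.0367), and the call ended without either wild type array (0.0749 without replicate 1 and 0.140 without replicate 2). ATA27, a beta-glucosidase gene, was at 0.94 (SE 0.18, limma adjusted p = 0.0905) and passed without cdm1 replicate 1 (0.0383). AMS, a transcription factor gene of the tapetum, was at 0.18 (SE 0.089, limma adjusted p = 0.395). AT5G07230 (A9), a lipid transfer protein gene, stood at 0.12 (SE 0.095, limma adjusted p = 0.592). In whole buds, more cells of a type and more RNA per cell cannot be told apart. Between the wild type arrays, KNS4 was higher on replicate 2 (11.81 against 11.58) and the marker mean was lower (10.36 against 10.62). The markers did not move together there. SHT (8.05 against 8.78), ATA27 (10.07 against 10.41) and AMS (11.089 against 11.094) were lower on replicate 2, and A9 was higher (12.25 against 12.20). Between the cdm1 arrays KNS4 and the marker mean were both higher on replicate 2. So were SHT, ATA27 and A9, while AMS was lower (11.26 against 11.29). The part of the tapetum in the KNS4 values was not tested.

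Markers of other tissues gave no called gene. PLIM2a, of late pollen, was at -0.49 (SE 0.18), with a limma adjusted p of 0.271, and moved to -0.24 and -0.75 when wild type replicate 1 or 2 was left out, in that order. ACT12, the other one measured and named after its value was seen, was at 0.38 (SE 0.14) and lay higher in both cdm1 arrays. The 2 measured late pollen markers of 7 both lay in the dimmest 33.3%. Their mean log2 level ran from 4.28 to 4.39 in cdm1 and from 4.21 to 4.56 in wild type. PTL, of petals and sepals (2 of 5 markers measured), was at 0.065 (SE 0.13). Its sign turned to -0.081 without cdm1 replicate 1 and to -0.010 without wild type replicate 2. RBE, the other one measured and named after its value was seen, was at -0.028 (SE 0.14). The genotypes overlapped for RBE, and it lay in the dimmest 33.3%. LHCB4.2, a chlorophyll-binding protein of photosynthetic tissue (1 of 6 measured), was at 0.085 (SE 0.097). The CDM1 gene itself did not count as measured by the annotation and gives no check of the labels.

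The 5 genes whose pattern over the 4 arrays was most like that of KNS4 were found by the root mean square distance between values centred on each gene's mean. They were AT2G35585 (distance 0.011), CXE18 (AT5G23530, 0.014), AT4G18670 (0.018), AT1G31130 (0.022) and AT3G13140 (0.030), on the log2 scale. Their own log2 fold changes lay between 0.37 and 0.43, and none passed limma's test. Both follow largely from choosing these genes by their likeness to KNS4. The likeness rests on 4 arrays, with 13427 probe sets compared. DD46 was the relative nearest to KNS4, at 0.17, and 1594 probe sets were nearer. AT1G05170 was the farthest, at 0.55, with 13174 nearer.

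**Figure D4:**
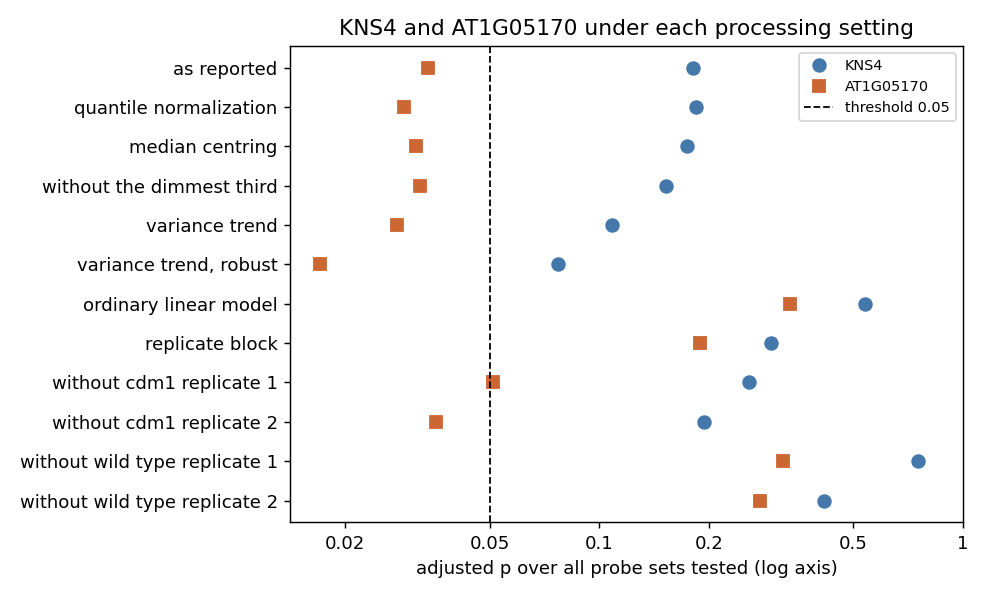
Adjusted p (horizontal log axis) of KNS4 and AT1G05170 in the fit as reported and under 11 other settings, with the threshold of 0.05 as a dashed line. KNS4 stays right of the line, from 0.0770 to 0.752, while AT1G05170 runs from 0.0171 to 0.335 and crosses it.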

How the data were processed

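The values deposited by the authors are log2 expression values, with 1 value for each probe set on each array. The submitters' processing notes name RMA and the R package affy, without versions. That the scale is log2 was judged from the values (array medians 7.21 to 7.24). Detection calls, scanner output and scan times were not used here. Batches and signal above background were therefore not tested, and precision is limited by the number of arrays.

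GEO's platform annotation gave the probe sets their genes. Gene IDs tied 13436 single-gene probe sets to 13286 loci of TAIR10.1, used to select genes by locus and to name them. Limma 3.58.1 in R 4.3.3 was fitted to all 22746 probe sets with genotype as the one term, leaving 2 residual and adding 4.00 prior degrees of freedom. P-values are two-sided, adjusted by Benjamini-Hochberg across the whole table and judged at 0.05. The fit was tested on simulated data that followed limma's own variance model, with added changes larger than those of the members. Whether that model suits these arrays was not tested by it. How the biological replicates were grown is not stated. The p-values set each difference against variation among these samples, which limma moderates across probe sets.

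Members and lists were chosen with earlier results of these data known. Named were all measured members, from each list up to 3 called genes or else the gene with the smallest p, the 5 genes nearest to KNS4, and A9, AMS, ATA27 and CDM1. HPGT1 to HPGT3, SPT, ACT12, RBE, SWEET8, SWEET13 and USP were named after their values were seen. The alternatives were quantile normalisation, median centring, removal of dim or shared probe sets, variance trends, unmoderated p-values, a replicate block and left-out arrays.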

Additional observations from a re-analysis of the deposited data

How the results depend on the processing

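KNS4 kept its positive log2 fold change and did not pass under any of 11 other settings, from 0.29 to 0.52 with limma adjusted p from 0.0770 to 0.752. AT1G05170 stayed negative under 11 settings and lost its call under 5. Ordinary linear-model p-values gave 0 called members (1 at an unadjusted p of 0.05) and 1 call on the whole array. The replicate block gave 0 called members (3 at an unadjusted p of 0.05 in limma) and 0 calls on the whole array (3110 unadjusted), with AT1G05170 at an adjusted p of 0.190 and KNS4 at 0.298. INP1, SHT and AT1G01570 also lost their calls under both of these settings. The replicate numbers were not shown to pair the samples: deviations of same-numbered arrays from their group means correlated at -0.066. Left-out arrays gave 0 to 1 called members in limma (1 to 6 at an unadjusted p of 0.05) and 0 to 1040 calls on the whole array (1619 to 5082 unadjusted), the highest without cdm1 replicate 2. Robust estimation with the variance trend gave 465 calls on the whole array, against 303 as reported, and the cause was not tested. KNS4 minus its relatives differed by 0.31 to 0.59 between genotypes with 1 array left out. With the median level of the relatives in place of the mean it differed by 0.80. That median takes different probe sets on different arrays, and the median of the relatives' own fold changes, an alternative chosen after seeing the data, gave 0.36. With 1 array left out, signs turned for 8 of the named genes that were refitted, none of them called. RBE was not among the genes refitted. AT1G77810 ran from -0.12 to 0.087, positive without replicate 2 of either genotype (0.012 for wild type). AT2G32430 ran from -0.47, without cdm1 replicate 1, to 0.57. AT3G14960 ran from -0.0060, without cdm1 replicate 2, to 0.10, and was -0.0041 without wild type replicate 1. AT3G49880 ran from -0.042, without cdm1 replicate 1, to 0.055, and was -0.0053 without wild type replicate 2. PTL ran from -0.081, without cdm1 replicate 1, to 0.21, and was -0.010 without wild type replicate 2. For genes added after seeing the data, AT4G32120 (HPGT2) ran from -0.046 to 0.025, positive when cdm1 replicate 1 was left out and 0.0025 without wild type replicate 2, AT2G25300 (HPGT3) ran from -0.17 to 0.041, positive without cdm1 replicate 2, and SPT ran from -0.080 to 0.035, also positive without cdm1 replicate 2 (0.028).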
